A study of Homo sapiens with 3 samples.

Results

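The array carried 6 human probes for serine and threonine tRNAs, 3 for serine (Ser1h, Ser2h and Ser3h) and 3 for threonine (Thr1h, Thr2h and Thr5h), out of 41 human tRNA probes in all. They were chosen by name, as the probes whose name begins with Ser or Thr and ends in h. RNA came from MCF-10A cells, a non-tumorigenic human mammary epithelial line, 72 h after transfection with 20 nM siRNA against eIF3e or a control siRNA. The target, eIF3e, belongs to eIF3, a complex that helps start translation. RNA from 2 knockdown cultures, labelled with Cy3, was set against RNA from 3 control cultures, labelled with Atto635, in 3 ratios, and the labels say the cultures were grown independently. Ratios 1 and 2 share 1 knockdown RNA, and no ratio had the dyes swapped. Both kinds of RNA received 4 pmol of each of 4 synthetic tRNA standards before labelling, and the cell line, siRNA dose and time were the same throughout. The measured quantity is tRNA whose 3' end could be ligated to the dye oligonucleotide. The protocol in the labels mentions a charging and an abundance version of the array and places periodate oxidation, which spares charged tRNA, under abundance, so abundance and charging cannot be told apart from the labels.

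A tRNA carries its amino acid on the 3' end and reads codons of the messenger RNA through its anticodon. Seryl-tRNA synthetase recognises serine tRNAs largely by their long variable arm and does not read the anticodon, since serine codons fall into separate codon boxes. Threonyl-tRNA synthetase recognises threonine tRNAs through the anticodon and acceptor stem. In the RefSeq annotation (GRCh38.p14), 26 nuclear serine tRNA genes carry 4 anticodons (10 genes with AGA, 8 with GCT, 4 with CGA and 4 with TGA), and 20 threonine tRNA genes carry 3 (9 with AGT, 6 with TGT and 5 with CGT). Of the serine genes 17 lie on chromosome 6, as do 9 of the threonine genes. The serine genes had a median length of 82 bases and the threonine genes of 74, and 3 further serine and threonine tRNA genes lie on the mitochondrial genome. A probe is named by amino acid and number with no anticodon, so a probe is not assigned here to any of these genes.

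Ser2h was the only 1 of the 6 probes that passed the test, at 1.34-fold in knockdown over control on the scale of the standards (log2 0.42, SE 0.13, limma adjusted p = 0.0167). This SE is pooled over all 41 human probes, which share the same 3 ratios and are not independent. With a variance of its own Ser2h did not pass (limma adjusted p = 0.354). The other 5 probes had log2 ratios between 0.19 and 0.34 and did not pass. With the ratio of a dye control array subtracted, the 3 threonine probes were between 0.03 and 0.09, Ser1h and Ser3h were at 0.15 and 0.09, and Ser2h was at 0.34 and no longer passed (adjusted p = 0.121). A call is a Benjamini-Hochberg adjusted p under 0.05 over all 41 human probes.

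The spots of these probes read above background in both channels, but not all gave clear signal. Thr5h was weak in control RNA 3, with a median of 133.5 in Atto635. The lowest Thr2h spot in control RNA 2 read 17. Each probe was printed as 16 spots. In ratios 1 and 3 and on the dye control array, none of the 96 spots was flagged and 0% of their pixels were saturated. The flags and saturation listed for ratio 2 repeat those of ratio 1, so control RNA 2 has no such readings of its own. Its spots were filtered by the flags of ratio 1. Over all unflagged spots the median background-subtracted intensity in Cy3 (knockdown) was 2983.5 for knockdown RNA 1 and 2476 for knockdown RNA 2, and the Atto635 channel, which holds the controls, read 1756.5, 1459 and 848 for control RNAs 1, 2 and 3. Intensities of different probes depend on hybridisation and are not compared with each other.

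Ser2h had a median intensity of 3945.5 in knockdown RNA 1 and 2859.5 in knockdown RNA 2, with SDs over its 16 spots of 784 and 599. In control RNAs 1, 2 and 3 it read 2243.5, 1543 and 782, with SDs of 437, 252 and 162. Both knockdown medians lay above all 3 control medians, but the channels have different dyes and gains, so these raw values do not compare the RNAs. Ser1h read 2130.5 and 1605 in the knockdown RNAs and 1261.5, 868 and 502 in the controls. Ser3h read 3011.5 and 2005 against 1830, 1399.5 and 683. In both serine probes, as in Ser2h, knockdown RNA 1 was brighter than knockdown RNA 2 and control RNA 3 was the dimmest.

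Thr1h read 3216 and 2229.5 in the knockdown RNAs and 1776.5, 1293.5 and 686 in the controls. Thr2h read 2113.5 and 1384 against 1235, 891 and 457. Thr5h read 719.5 and 468 in the knockdown RNAs and 388, 269.5 and 133.5 in the controls, the last below the limit of 200 used here for dim spots. Its 16 spots spread from 47 to 362 in control RNA 3, so its ratio 3 rests on weak signal.

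**Figure D1:**
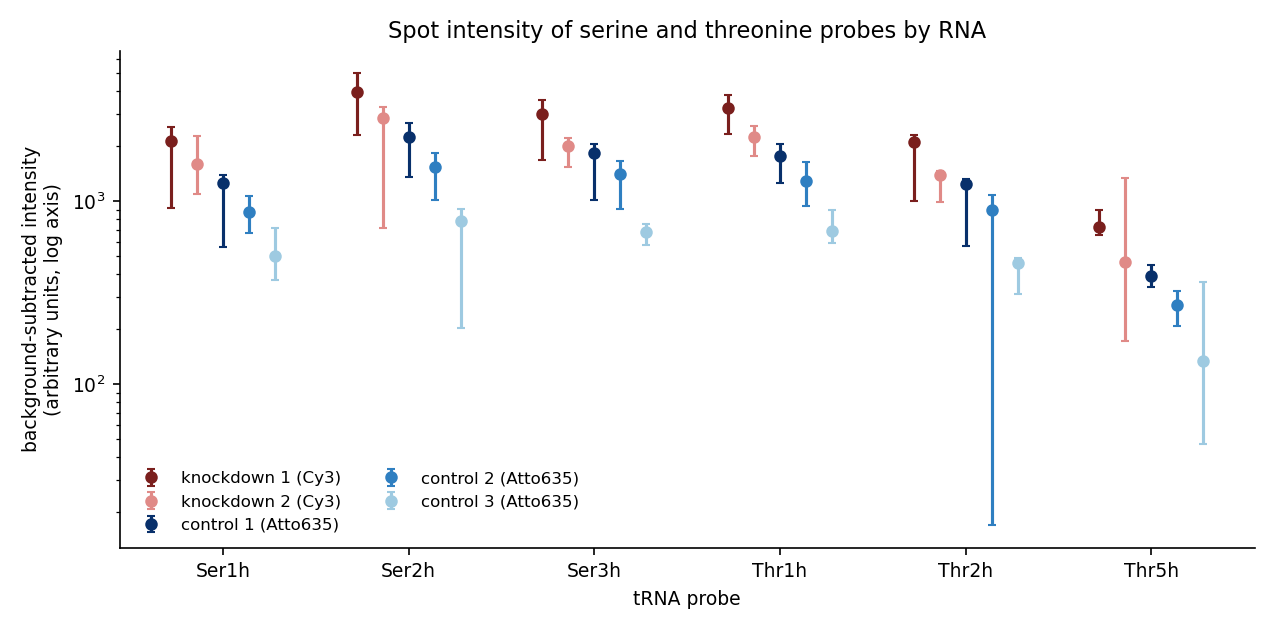
Background-subtracted spot intensity in arbitrary units (log axis) of the 6 probes in knockdown RNAs 1 and 2 (Cy3) and control RNAs 1, 2 and 3 (Atto635). Points are medians of 16 spots and bars run from the lowest to the highest spot. Control RNA 3 is the dimmest for every probe, and the long bar of Thr2h comes from a spot of 17 in control RNA 2.

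Set against the median of the 4 standards in the same channel, the Ser2h level (log2) was -1.70 and -2.05 in knockdown RNAs 1 and 2 and -1.90, -2.22 and -2.70 in control RNAs 1, 2 and 3. The level in knockdown RNA 2 thus lay below that in control RNA 1. For 0 of the 6 probes were both knockdown levels above all 3 control levels, against 7.32% of all human probes. These levels come from different arrays, and array 3 was lower in both channels, as given below. Neither this count nor the span of the controls can therefore separate the RNAs from the arrays. The 3 control RNAs spanned 0.80 for Ser2h and between 0.59 and 0.70 for the other 5 probes, more than any fitted ratio among them. Array 3 was lower in both channels: the median difference over the 6 probes was -0.44 for knockdown RNA 2 minus knockdown RNA 1 and -0.67 for control RNA 3 minus control RNA 1. Over all 41 probes these differences were -0.42 and -0.58.

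The 3 log2 ratios of Ser2h, scaled on the standards, were 0.08, 0.50 and 0.60, with mean 0.39 ± 0.27 (SD, n = 3). The fitted value of 0.42 gives ratio 3 more weight, as the only ratio from knockdown RNA 2. Its 95% interval from the pooled SE ran from 0.16 to 0.68. That interval does not reflect the spread of Ser2h itself, whose SE from its own variance was 0.22. Ratio 1 was low and ratios 2 and 3 were high. Ratio 2 differs from ratio 1 by 0.41, although both use the same Cy3 measurement, so this gap lies wholly between the Atto635 readings of control RNAs 1 and 2. The call of Ser2h ended without ratio 2 (log2 0.34, limma adjusted p = 0.118) and without ratio 3 (0.29, from 1 knockdown RNA). Without ratio 1 it was 0.55 (adjusted p = 9.16e-09), but 31 of 41 human probes were called higher in that setting. It is thus not particular to Ser2h, and each of these fits rests on 2 ratios.

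Without dye subtraction, the Ser2h value stayed above 0 in 21 of 21 alternative settings applied to the scanner values and was called in 14. It was not called with plain background subtraction (log2 0.46, limma adjusted p = 0.0530), loess (0.20, adjusted p = 0.460), the mean of its spots (0.43, adjusted p = 0.345), a correlation of 0.8 between ratios 1 and 2 (0.44, adjusted p = 0.436) or a variance of its own (0.42, adjusted p = 0.354), besides the settings without ratio 2 or 3. The 14 settings include the one without scaling, which keeps the offset between the dyes and called 40 of 41 human probes higher. They also include those without ratio 1, with ratios 1 and 2 averaged and with independent ratios, which called 31, 28 and 20 higher. The SE of 0.13 is pooled and common to all 41 probes. By contrast, the SD of Ser2h over the ratios, 0.27, was the largest of the 41 probes.

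**Figure D2:**
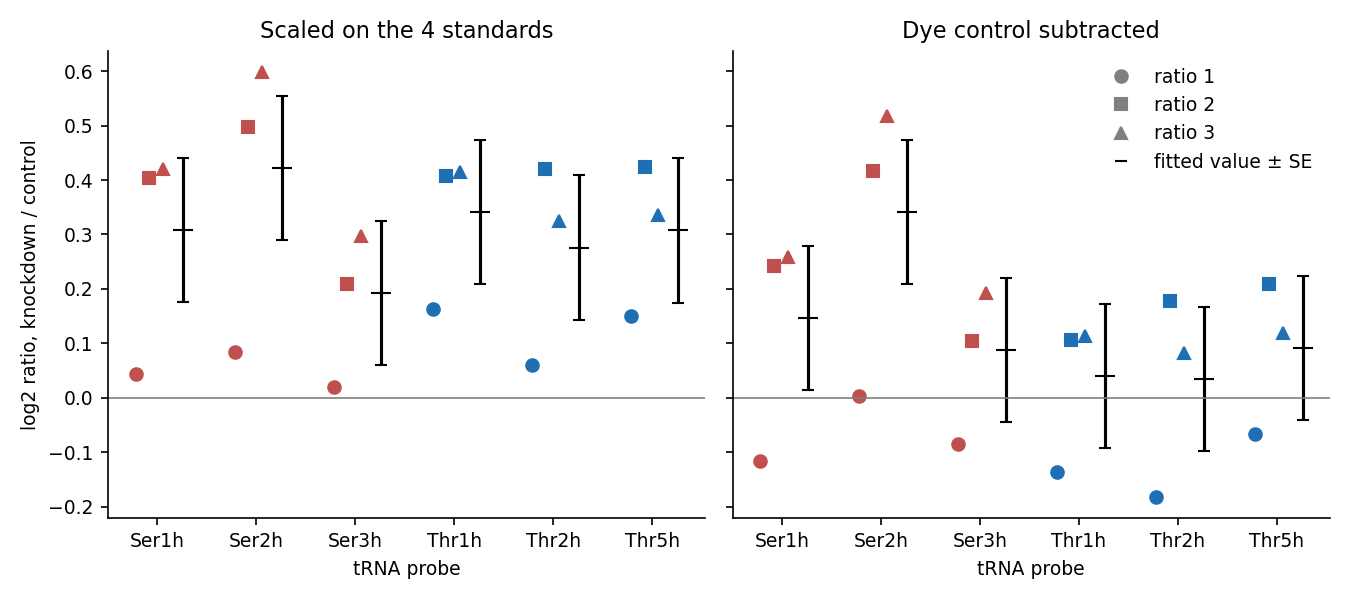
Log2 ratio of knockdown over control for each probe in ratio 1 (circle), ratio 2 (square) and ratio 3 (triangle), serine in red and threonine in blue, with the fitted value ± SE in black. Ratio 1 is the lowest of the 3 for all 6 probes. With the dye control subtracted (right), it lies at 0.0031 for Ser2h and below 0 for the other 5.

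The other serine probes had the same order of ratios with smaller values. Ser1h was at 0.04, 0.40 and 0.42, a mean of 0.29 ± 0.21 (SD, n = 3), with a fitted log2 ratio of 0.31 (SE 0.13, limma adjusted p = 0.0881). Ser3h was at 0.02, 0.21 and 0.30, a mean of 0.17 ± 0.14 (SD, n = 3), fitted at 0.19 (adjusted p = 0.242). Ser3h was the lowest of the 6 probes, and its 95% interval, -0.07 to 0.45, includes 0.

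The 3 threonine probes lay close together. Thr1h was at 0.16, 0.41 and 0.42, fitted at 0.34 (SE 0.13, limma adjusted p = 0.0610). Thr2h was at 0.06, 0.42 and 0.32, fitted at 0.28 (adjusted p = 0.119), and Thr5h was at 0.15, 0.42 and 0.34, fitted at 0.31 (adjusted p = 0.0881). Their means over the 3 ratios were 0.33 ± 0.14, 0.27 ± 0.19 and 0.30 ± 0.14 (SD, n = 3).

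Without dye subtraction Thr5h was called in 9 of 21 alternatives, and treatments of weak signal were only some of these. Unlike those counted for Ser2h, these 21 include the authors' deposited ratios, where Thr5h was not called. Among the 9 are no scaling, ratios 1 and 2 averaged and independent ratios, which called 40, 28 and 20 of 41 human probes higher. Thr5h was also called higher with plain subtraction (log2 0.51, limma adjusted p = 0.0279), with a normexp offset of 0 (0.52, adjusted p = 0.0206) and with spots under 200 left out (0.41, adjusted p = 0.0191). Its adjusted p was 5.99e-06 without ratio 1, when 31 of 41 human probes were called higher, and 0.552 with loess. Without ratio 3, which leaves 1 knockdown RNA, it was at 0.29. With plain subtraction, the offset of 0 and dim spots left out, Ser1h, Ser3h, Thr1h and Thr2h were not called. After dye subtraction the same settings put Thr5h at 0.21, 0.22 and 0.20 and did not call it (limma adjusted p = 0.629, 0.605 and 0.463).

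Over the 6 probes the median log2 ratio was 0.31, against 0.21 over all 41 human probes and 0.20 over the other 35. Called higher were 1 of the 6, where 9.76% of all human probes were called higher, and called lower were 0 of the 6, where 2.44% were. At an unadjusted p under 0.05 there were 5 of the 6 in the same limma fit, where 36.6% of all human probes reached that level. All 6 were above 0 in all 3 ratios, where 70.7% of all human probes were, and 0 of the 6 were below 0 in all 3, where 4.88% were. With the standards as reference, the median human probe was at 0.05, 0.26 and 0.28 in the 3 ratios, against 0.07, 0.41 and 0.38 for the median of the 6.

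Measured from the median human probe of each array instead, Ser2h was higher by 0.03, 0.24 and 0.31 in ratios 1, 2 and 3. Thr1h was higher by 0.11, 0.15 and 0.13, with an SD of 0.017 over the 3 ratios. Ser1h was at -0.0055, 0.14 and 0.14, and Ser3h at -0.03, -0.05 and 0.01. In a limma fit on this scale Ser2h was at 0.21 (SE 0.07, adjusted p = 0.0313), Thr1h at 0.13 (adjusted p = 0.234) and Ser3h at -0.02 (adjusted p = 0.932). Here too 1 of the 6 was called higher, where 9.76% of all human probes were, and 0 lower, where 9.76% were.

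The 6 probes held ranks 4, 7, 8, 9, 12 and 24 among the 41 fitted log2 ratios. Ser2h (0.42) stood next to Arg3h, an arginine probe, at 0.42 and above Val4h, a valine probe, at 0.36. Thr1h (0.34) followed Leu4h (0.35), and Ser1h and Thr5h were both at 0.31 beside Glu2h (0.31). Thr2h (0.28) lay between Val1h (0.30) and Gln1h (0.27), and Ser3h (0.19) between Met1h (0.20) and Lys4h (0.19). None of the 6 differed from these neighbours by as much as the SE of 0.13.

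**Figure D3:**
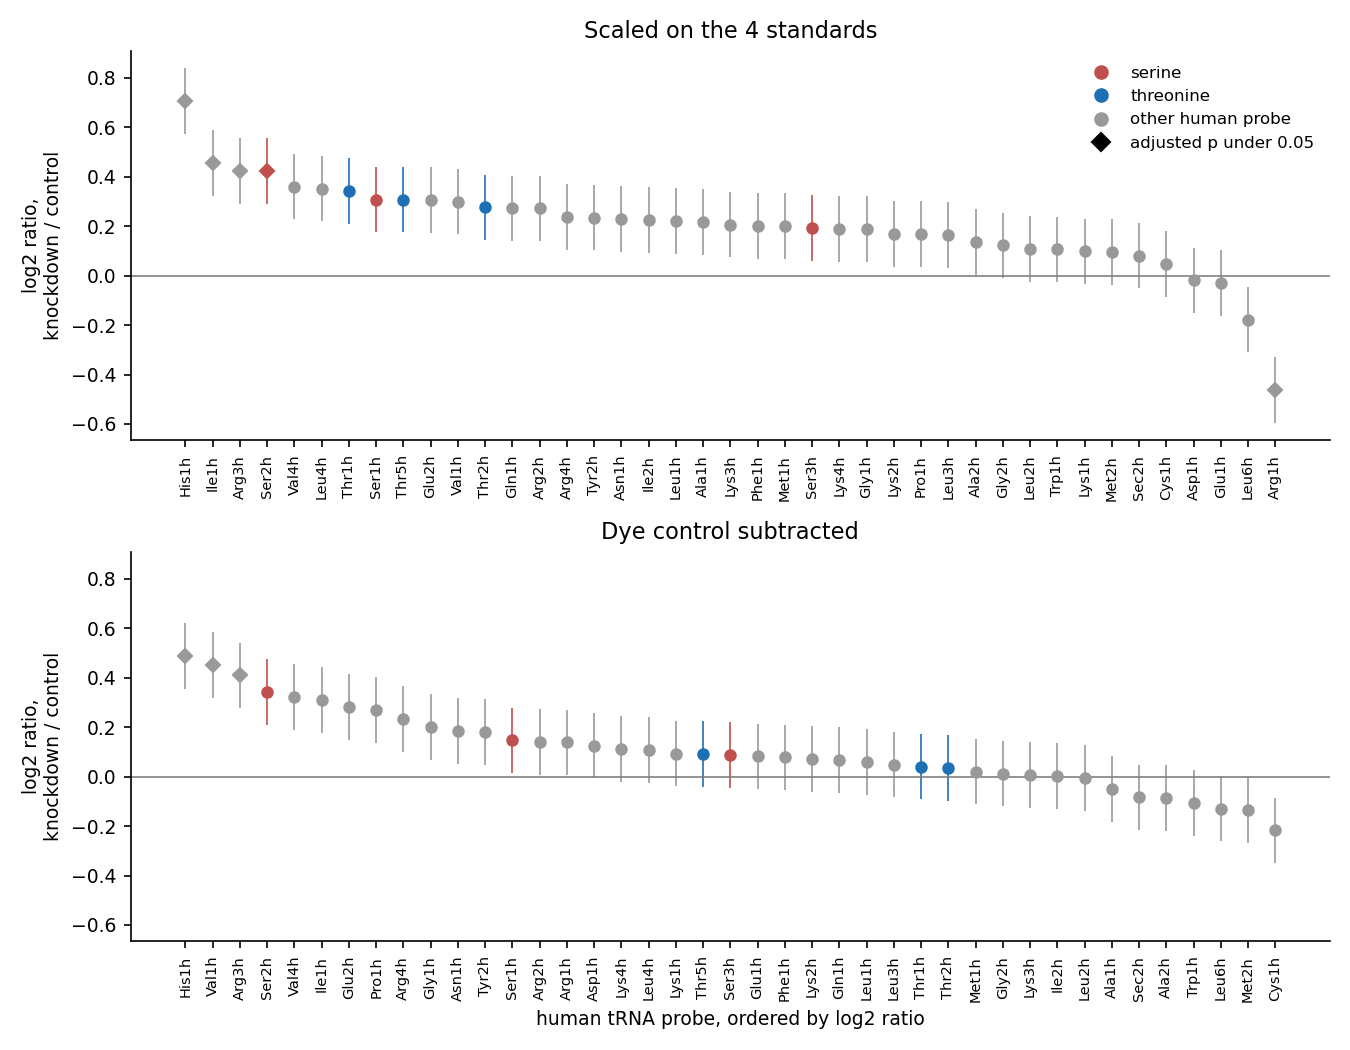
Fitted log2 ratio ± SE of the 41 human tRNA probes, ordered from high to low, scaled on the standards (top) and with the dye control subtracted (bottom), with serine probes in red and threonine probes in blue. Diamonds mark an adjusted p under 0.05. Ser2h holds rank 4 on both scales, while Thr1h and Thr2h move from ranks 7 and 12 to ranks 28 and 29.

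The dye control array differed between the serine and the threonine probes. The sources used here do not say which RNAs were on it. Its log2 ratio of Cy3 over Atto635, scaled on the same standards, was 0.30 for Thr1h, 0.24 for Thr2h and 0.22 for Thr5h, which rank 1, 5 and 10 from the top of the 41 probes. It was 0.16 for Ser1h, 0.10 for Ser3h and 0.08 for Ser2h, at ranks 17, 24 and 26, and the median over all 41 was 0.11. The 16 spots of a probe had SDs between 0.05 and 0.12 there. The array is a single one, and its own error is in none of the SEs.

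**Figure D4:**
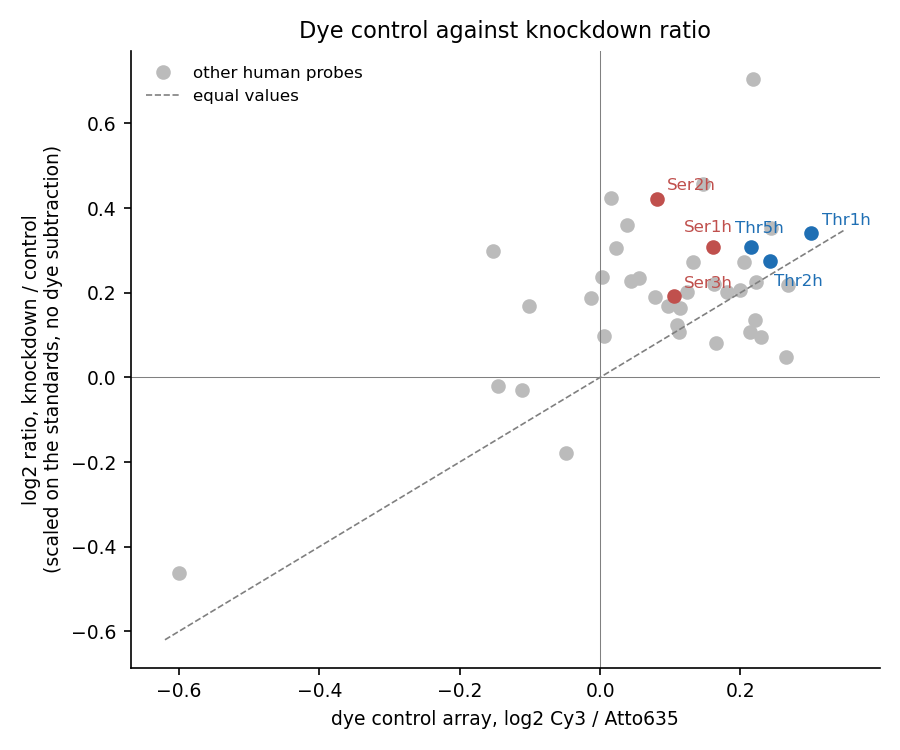
Fitted log2 ratio of knockdown over control, scaled on the standards (vertical), against the log2 ratio on the dye control array (horizontal) for the 41 human tRNA probes. The dashed line marks equal values. The threonine probes (blue) lie close to it, between 0.22 and 0.30 on the horizontal axis. Ser3h (red) lies about as close to the line as Thr5h, and Ser2h (red) lies well above it.

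Subtracting the dye control left the threonine probes near 0, although Ser3h (0.09) was then as low as Thr5h (0.09). Thr1h was at -0.14, 0.11 and 0.11 in the 3 ratios, fitted at 0.04 (SE 0.13, limma adjusted p = 0.894), with a 95% interval of -0.22 to 0.30. Thr2h was at -0.18, 0.18 and 0.08, fitted at 0.03 (adjusted p = 0.908), and Thr5h at -0.07, 0.21 and 0.12, fitted at 0.09 (adjusted p = 0.789). All 3 were below 0 in ratio 1 and above 0 in ratios 2 and 3. The intervals of Thr2h, -0.23 to 0.29, and of Thr5h, -0.17 to 0.35, also leave room for changes in either direction. Centred on the median human probe as well, the 3 threonine probes turned to -0.06, -0.06 and -0.0041.

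Ser2h kept more of its value, as it had both the highest ratio before subtraction (0.42) and the smallest dye control ratio (0.08) of the 6. It was at 0.0031, 0.42 and 0.52, a mean of 0.31 ± 0.27 (SD, n = 3). The fit put Ser2h at 1.27-fold (log2 0.34, SE 0.13, limma adjusted p = 0.121), with a 95% interval of 0.08 to 0.60 from the pooled SE. Ratio 1 alone showed no excess. Ser1h was at -0.12, 0.24 and 0.26, fitted at 0.15 (adjusted p = 0.748), and Ser3h at -0.08, 0.10 and 0.19, fitted at 0.09 (adjusted p = 0.789).

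After dye subtraction limma called 0 of the 6 higher, where 7.32% of all human probes were called higher, and 0 of the 6 lower, where 0% were. At an unadjusted p under 0.05 there was 1 of the 6, Ser2h, where 19.5% of all human probes reached that level. Above 0 in all 3 ratios was 1 of the 6, where 24.4% of all human probes were, and 0 of the 6 were below 0 in all 3, where 12.2% were. The median of the 6 was 0.09, as was that of all 41 probes.

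Further choices bear on Ser2h after dye subtraction. Centred on the median human probe of each array it was at 0.25 (SE 0.07, limma adjusted p = 0.0144), the 1 of the 6 probes called there, where 17.1% of all human probes were called higher. Without ratio 1 it was at 0.47 (adjusted p = 2.16e-07), a setting in which 19 of 41 human probes were called higher. Without ratio 2 it was at 0.26 (adjusted p = 0.354), and without ratio 3, which leaves 1 knockdown RNA, at 0.21. Of 22 alternatives it was called in 5 and lay above 0 in all 22.

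**Figure D5:**
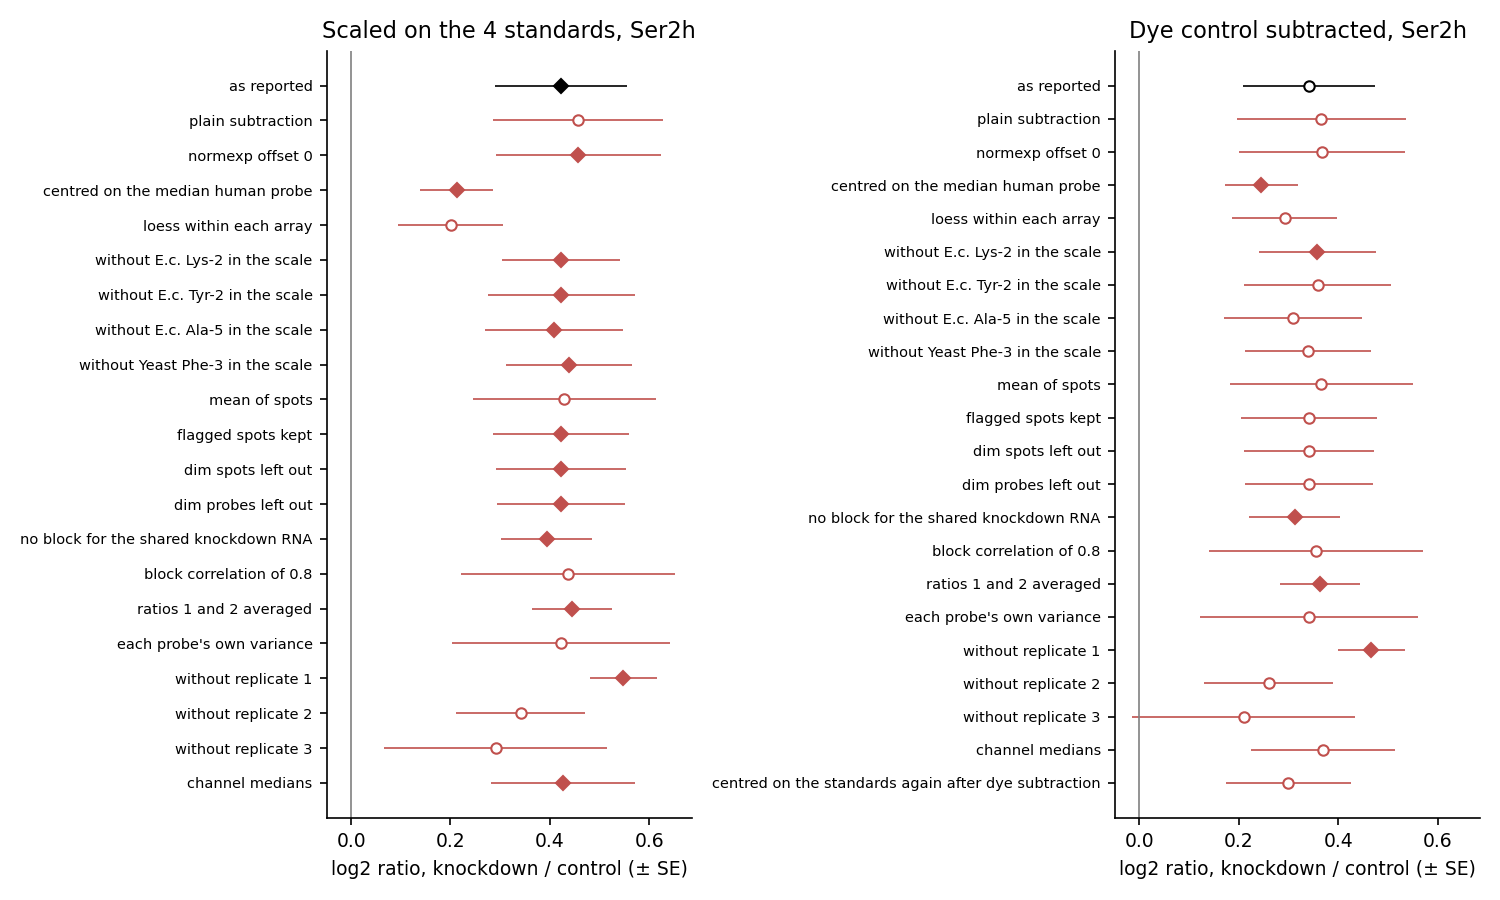
Log2 ratio of Ser2h ± SE as reported (black) and under alternative settings (red), scaled on the standards (left) and with the dye control subtracted (right). Filled diamonds have an adjusted p under 0.05 and open circles do not. The setting without scaling, which keeps the offset between the dyes, and the authors' deposited ratios are not drawn. All drawn values lie above 0, from 0.20 to 0.55 on the left and from 0.21 to 0.47 on the right.

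In the authors' deposited table, Ser2h has linear ratios of 1.06, 1.35 and 1.45. The authors' deposited table gives 0.964, 1.19 and 1.20 for Ser1h and 0.983, 1.07 and 1.15 for Ser3h. For Thr1h the authors' deposited table holds 0.945, 1.07 and 1.09, for Thr2h 0.914, 1.13 and 1.07, and for Thr5h 0.994, 1.18 and 1.26. In these values, too, ratio 1 is the lowest for each probe. Over 40 human probes, the logarithms of the authors' deposited table correlated with the dye-subtracted ratios at r = 0.968, 0.970 and 0.943, and with the uncorrected ones at r = 0.662, 0.662 and 0.488, a description across probes that share arrays. The same limma fit applied to the authors' deposited table called Ser2h higher (log2 0.38, adjusted p = 0.0223), 1 of the 6 probes, where 15% of all human probes were called higher, and none lower, where 0% were.

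Probes for the same amino acid were also compared with each other, in 6 pairs. Ser2h exceeded Ser3h by 0.06, 0.29 and 0.30 in ratios 1, 2 and 3, on average 0.22 ± 0.13 (SD, n = 3, exact two-sided sign-flip test p = 0.25, adjusted over the 6 pairs p = 0.375). Subtracting the dye control made this difference 0.24. Ser2h also exceeded Ser1h in all 3 ratios, by 0.04, 0.09 and 0.18 on the scale of the standards, and Ser1h exceeded Ser3h by 0.02, 0.19 and 0.12. The smallest p that 3 ratios allow is 0.25, so no pair could pass, and the test takes the ratios as independent although ratios 1 and 2 share a knockdown RNA and its Cy3 values.

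Among the threonine probes, the mean difference was 0.06 ± 0.06 for Thr1h minus Thr2h (exact p = 0.50), 0.03 ± 0.05 for Thr1h minus Thr5h (exact p = 0.75) and -0.03 ± 0.05 for Thr2h minus Thr5h (exact p = 0.25), each over n = 3 ratios. With the dye control subtracted these became 0.0016, -0.06 and -0.06, and Ser1h minus Ser3h became 0.06. The differences from Thr5h depended on the background: plain subtraction gave -0.12 for Thr1h minus Thr5h and -0.16 for Thr2h minus Thr5h on the scale of the standards. Whether serine probes differ among themselves more than threonine probes was not tested. The serine and the threonine probes had the same mean log2 ratio on the scale of the standards, 0.31 each, and means of 0.19 and 0.06 after dye subtraction.

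Among the probes for other amino acids, the one most like each of the 6 was found by the root-mean-square difference of the 3 log2 ratios. For Ser2h it was Val4h (0.18, 0.51 and 0.38), at a difference of 0.14, and after dye subtraction Pro1h, a proline probe (0.0094, 0.42 and 0.34), at 0.10. For Ser3h it was Lys4h, a lysine probe, at 0.03, and then Glu1h, a glutamate probe, at 0.02. Arg2h was the nearest to both Ser1h and Thr2h, each at 0.04, Val4h to Thr1h at 0.06 and Glu2h to Thr5h at 0.04. After dye subtraction the nearest were Arg1h for Ser1h, Gln1h for Thr1h, Lys3h for Thr2h and Lys4h for Thr5h. Ser2h was thus the probe of the 6 with the least similar neighbour on both scales.

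Spots of 1 probe agreed closely within arrays 1 and 3. The SD over 16 spots was between 0.05 and 0.08 (log2) in ratio 1 and between 0.04 and 0.12 in ratio 3, and all 96 spots of the 6 probes lay above 0 in ratio 3, against 82 of 96 in ratio 1. In ratio 2 the SD was between 0.16 and 1.11, the last for Thr2h, which held a spot at 4.29. Across the 96 spots, deviations from the probe's median in both channels correlated at r = 0.975 in ratio 1 and 0.975 in ratio 3, but at r = -0.077 in ratio 2. The table of ratio 2 repeats 56 of the 57 columns of ratio 1, Cy3 included, and brings only its own Atto635 values, so its channels do not come from the same spots.

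The 4 standards set the scale. In ratios 1, 2 and 3, Yeast Phe-3 lay at 0.31, 0.31 and 0.40, E.c. Ala-5 at -0.17, -0.07 and -0.04, E.c. Tyr-2 at -0.03, 0.01 and 0.01, and E.c. Lys-2 at 0.03, -0.01 and -0.01. The spread between standards is thus as large as most of the ratios of the 6 probes. On the dye control array E.c. Lys-2 lay at -0.35, E.c. Tyr-2 at -0.02, E.c. Ala-5 at 0.02 and Yeast Phe-3 at 0.28. Subtracting -0.35 raises E.c. Lys-2, added equally to both kinds of RNA, by about the dye-subtracted value fitted for Ser2h (0.34). Without E.c. Lys-2 or without Yeast Phe-3 in the scale, 4 of the 6 probes were called higher (Ser1h, Ser2h, Thr1h and Thr5h). Of all 41 human probes 11 and 10 were called higher in these settings, against 4 as reported, so the count rose across the array.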

How the data were processed

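The authors deposited 2-colour scanner tables of 800 spots with background-subtracted mean intensity per channel and the percent of saturated pixels, per the file headers, and a table of linear ratios per probe. The scanner and the making of those ratios are not named in the sources used here. Members and tests were chosen with earlier results of these data known. Intensities were corrected with normexp (offset 50), each spot gave a log2 ratio (Cy3 to Atto635), and unflagged spots were summarised per probe by their median, minus that of the 4 standards. For dye subtraction, the dye control array was treated alike and subtracted. All 41 human probes were fitted in limma 3.58.1 (R 4.3.3) blocked on the knockdown RNA at a set correlation of 0.5, since 3 ratios cannot estimate it, and p-values were adjusted over the 41. The prior degrees of freedom were infinite, so all probes share 1 SE, and 95% intervals follow from it. Pooling takes the probes as independent, although all come from the same 3 ratios. The intervals therefore do not measure the spread of a single probe. Simulated data served only to check that the fit runs as written. They had a larger effect than any of the 6 probes, a smaller spread and no shift shared by all probes. They therefore do not show how reliable the calls are here. Named were the 6 probes, the standards, each member's nearest probe and its neighbours in order. The number of arrays limits the precision. Alternatives covered background correction, scaling, spot summary, dim signal, the block, the variance and leaving out each ratio.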

Additional observations from a re-analysis of the deposited data

How the results depend on the processing

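Against 1 of the 6 probes called higher on the scale of the standards, 2 were called with a normexp offset of 0 and with dim spots left out (Ser2h and Thr5h in both; 7 of 41 and 5 of 40 human probes in all, against 4 of 41 as reported), and 4 without E.c. Lys-2 or Yeast Phe-3 in the scale (11 and 10 of 41). With the ratios taken as independent 5 were called (20 of 41), and 6 with ratios 1 and 2 averaged (28 of 41) or without scaling, which keeps the offset between the dyes (40 of 41). Counts rose across the array in these settings. The count was 0 with loess, the mean of spots, a correlation of 0.8 and a variance per probe, and 0 to 6 when a ratio was left out (6 without ratio 1, when 31 of 41 human probes were called higher, and 0 without ratio 2 or 3). Plain subtraction kept the count at 1, with Thr5h called in place of Ser2h. Against 0 with the dye control subtracted, 1 (Ser2h) was called centred on the median human probe, without E.c. Lys-2, with independent ratios and with ratios 1 and 2 averaged (7, 6, 8 and 10 of 41 human probes, against 3 as reported), and 0 to 3 when a ratio was left out (3 without ratio 1, when 19 of 41 were called). No setting run called any of the 6 lower.

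On the scale of the standards, loess turned Ser3h to -0.051 and Thr2h to -0.0173, and centring on the median human probe turned Ser3h to -0.0182. With the dye control subtracted, centring on the median human probe turned Ser3h to -0.0083, Thr1h to -0.0558, Thr2h to -0.0617 and Thr5h to -0.0041, and loess turned Thr2h to -0.0246. Channel medians turned Thr1h to -0.0065 and Thr2h to -0.0458, and centring on the standards again after dye subtraction turned them to -0.0014 and -0.0073. When a ratio was left out, Thr1h ran from -0.0153 to 0.11 and Thr2h from -0.0496 to 0.13. Channel medians, the repeated centring on the standards and the leaving out of a ratio in differences between probes were chosen after seeing the data. Thr1h minus Thr5h and Thr2h minus Thr5h moved by more than their SD with plain subtraction and an offset of 0 on both scales (between -0.12 and -0.17), as did Thr2h minus Thr5h with loess (-0.12 and, dye subtracted, -0.16). The cause of these moves was not tested. With dim probes left out Thr5h has no value. Each ratio sets a knockdown RNA against a control RNA, so the fit already used this pairing. The series holds 1 group of ratios, so no further paired analysis was possible. Signal over background is a limit for Thr5h.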
